A study of Mus musculus with 6 samples.

Results

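The 49 genes described here encode proteins of DNA replication and mitosis, and were measured in intestinal RNA of mice with and without a deletion of the transcription factor gene Myc. They were taken by symbol (GENCODE M21) from a table of 47643 genes, and all 49 were found once. Of these, 22 were grouped as genes of replication or of the transition from G1 to S phase. The other 27 were grouped as genes of G2 and mitosis, although some, such as Plk4 in centriole copying, do not act there alone. The study sequenced messenger RNA in 6 libraries from the intestine of male C57BL/6 mice, aged 7 to 8 weeks, that had been injected with tamoxifen and fed a diet with 60% fat for 2 weeks. The mice of the 3 control libraries had the genotype Mycfl/fl, a Myc gene flanked by recombination sites. Those of the 3 Myc-deleted libraries had the genotype MycΔIE, ERT2, where ERT2 denotes the part of a recombinase that tamoxifen switches on. The labels name neither the promoter that drives the recombinase nor whether the controls carry one, so loss of Myc and recombinase activity cannot be told apart in any comparison below. Nor do they say that replicates came from separate animals, so p-values measure the spread between these libraries only.

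A cell copies its DNA once per division. In G1, Cdc6 and Cdt1 load the Mcm helicase onto origins. At the start of S phase, cyclin E with Cdk2 and the E2F factors switch on the S-phase genes, and Cdc45 and GINS turn the helicase on. Cyclins A and B with Cdk1 then drive mitosis, where kinases, kinetochore proteins and motor proteins attach and separate the chromosomes. In the intestine, dividing cells sit mainly in the crypts, where stem cells and transit-amplifying cells replace the lining continually, and germinal centres of the lymphoid tissue also hold dividing B cells. In cultured cells Myc is known for driving entry into S phase.

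Both classes have a known sequence signature in their promoters, shown here because it separates them without using any expression value. S-phase genes often carry E2F sites, and G2 and mitosis genes often carry a cell cycle homology region (CHR). RefSeq windows (GRCm38.p6; 250 bases before to 50 after an annotated start) were found for 40 members, 18 replication and 22 mitosis genes. The letters TTTNNCGC (E2F-type, on either strand) occurred in 10 of 18 replication genes (55.6%) and 1 of 22 mitosis genes (4.55%), against 5.93% of 27025 genes in the table. The letters TTTGAA (CHR, either strand) occurred in 15 of 22 mitosis genes (68.2%) and 3 of 18 replication genes (16.7%), against 20.2% of all genes. By their letters an E2F-type and a CHR match cannot share bases. Their lack of overlap in members (0 of 40) and in all genes (0) therefore says nothing about the classes. Of the 15 mitosis genes with a CHR match, 14 had one centred within 50 bases of the start (93.3%), against 28.9% of all genes with a match, and the exception was Mki67. CCAAT boxes (CCAAT, either strand) occurred in 12 of 18 replication and 18 of 22 mitosis genes, against 41.1% of all genes. The E-box letters CACGTG, which Myc with its partner Max can bind, occurred in 0 of 40 member windows and in 8.09% of all genes. A match describes the letters only and is not a bound site. No window was matched for Aurkb, Ccna2, Ccne2, Foxm1, Gins1, Gins2, Kif20a, Mcm4 and Tpx2. The median log2 fold change (Myc-deleted over control) was -0.04 for the 11 tested members with an E2F-type match and -0.07 for the 28 without. It was -0.07 for the 18 with a CHR match and -0.04 for the 21 without, values described without a test.

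The last 150 bases before the start are given for 2 replication genes with an E2F-type match (Mcm6, chr1:128359706-128359855, minus strand, and Uhrf1, chr17:56303187-56303336, plus strand), for 2 mitosis genes whose levels are described below (Mki67, chr7:135716380-135716529, and Cdc20, chr4:118437344-118437493, both minus strand), and for Cdk1 (chr10:69352913-69353062, minus strand), the 1 member with both motifs. Capitals mark the E2F-type matches in Mcm6 and Uhrf1, the CHR matches in Mki67 and Cdc20, and both in Cdk1.
Mcm6: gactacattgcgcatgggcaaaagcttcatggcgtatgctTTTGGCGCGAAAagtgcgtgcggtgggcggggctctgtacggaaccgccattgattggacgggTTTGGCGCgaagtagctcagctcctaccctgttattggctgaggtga
Uhrf1: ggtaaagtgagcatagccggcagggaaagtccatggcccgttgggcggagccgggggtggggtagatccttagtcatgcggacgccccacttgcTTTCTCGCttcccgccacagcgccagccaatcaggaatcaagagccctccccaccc
Mki67: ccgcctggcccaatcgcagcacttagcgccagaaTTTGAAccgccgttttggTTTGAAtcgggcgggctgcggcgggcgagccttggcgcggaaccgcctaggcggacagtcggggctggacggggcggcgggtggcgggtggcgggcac
Cdc20: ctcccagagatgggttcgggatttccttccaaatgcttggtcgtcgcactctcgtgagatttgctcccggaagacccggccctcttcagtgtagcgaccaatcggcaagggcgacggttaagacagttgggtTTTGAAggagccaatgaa
Cdk1: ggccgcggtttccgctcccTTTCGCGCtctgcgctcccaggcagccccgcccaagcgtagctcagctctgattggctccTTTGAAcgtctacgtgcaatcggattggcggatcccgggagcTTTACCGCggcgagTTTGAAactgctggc

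**Figure D1:**
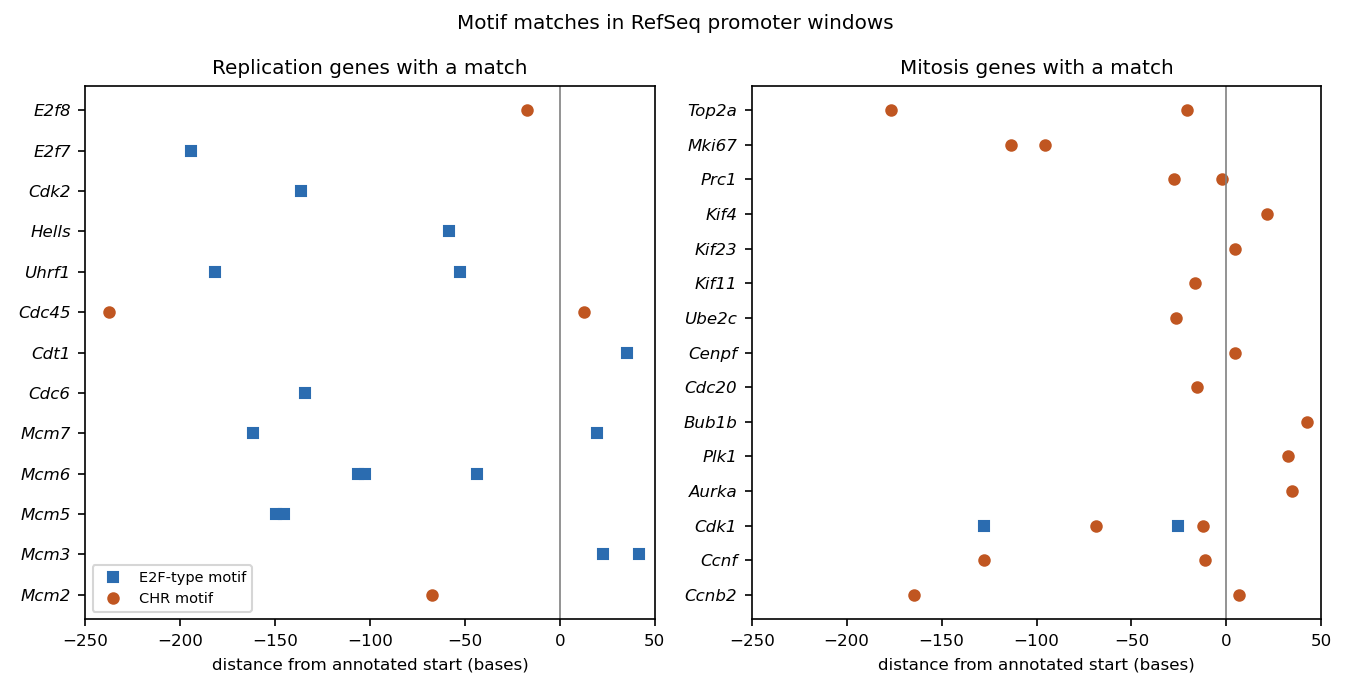
Positions of E2F-type (squares) and CHR (circles) matches in promoter windows of replication genes (left) and mitosis genes (right), in bases from the annotated start. E2F-type matches fall in 10 replication genes and 1 mitosis gene, and CHR matches in 15 mitosis genes, 14 of them with a match within 50 bases of the start.

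Libraries held between 9956938 and 11328693 expected counts, RSEM's estimates of reads per gene. Levels are CPM, each count scaled to the library's total after TMM adjustment, and 3 counts corresponded to 0.259 to 0.306 CPM. Epithelial markers summed to 17703 to 20127 CPM in control mice against 18331 to 19936 CPM after deletion, with no marker at 0. The extraction protocol names liver, against intestine elsewhere in the labels, and the 5 hepatocyte markers together reached at most 7.05 CPM. Myc itself had 59, 70 and 59 counts in the control libraries, numbered 1 to 3, against 36, 47 and 63 in the correspondingly numbered Myc-deleted ones. It did not pass (-0.41 ± 0.22 SE on the log2 scale, edgeR adjusted p = 0.318), with -0.23 on dropping Myc-deleted library 1 and -0.65 on dropping library 3. The library labelled Myc-deleted 3 held 5.81 CPM, just under the control range of 5.86 to 6.05 CPM. The labels do not say which part of Myc is removed, and reads outside it would check nothing. Smooth muscle markers stood at 77.7 CPM in control library 2 and at 13.4 to 23.9 CPM in the other libraries.

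The comparison of Myc-deleted with control mice showed no replication or mitosis gene past the threshold. Of the 49 genes 48 passed the filter on low counts, and 0 of 48 were higher or lower at an adjusted p of 0.05 (edgeR quasi-likelihood test, Benjamini-Hochberg adjustment over 12720 genes), where 7.95% of all tested genes passed (4.22% higher and 3.73% lower). DESeq2 and limma voom also called 0 of them, while edgeR called 2 with no filter on low counts (Bub1b and Mki67, both lower) and 1 in a fit with a replicate block (Mki67, lower). At an unadjusted edgeR p under 0.05 there were 5 members (10.4%), 4 lower and 1 higher, below the 22.2% of all tested genes. The median log2 fold change was 0.00407 over 21 replication genes and -0.10 over 27 mitosis genes, against -0.00212 over all tested genes. Negative values were found for 10 of 21 replication and 20 of 27 mitosis genes, where 50.2% of all tested genes were negative. The 95% intervals of the log2 fold changes, not adjusted for the number of genes, lay inside a 2-fold change in either direction for 42 of 48 genes and inside 1.5-fold for 21 of 48. In bulk tissue, fewer dividing cells and less RNA per dividing cell cannot be told apart.

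**Figure D2:**
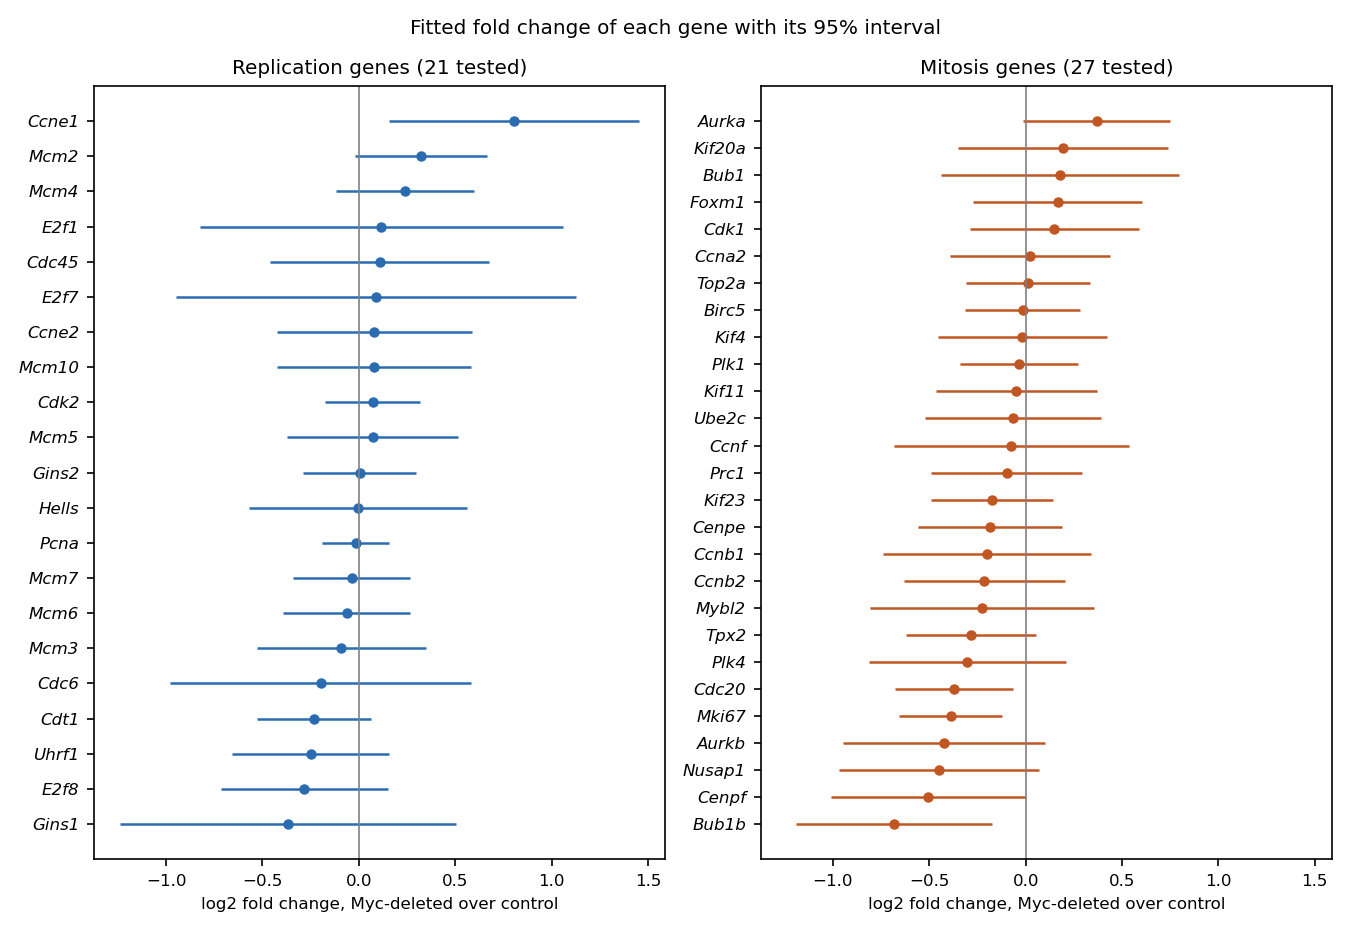
Fitted log2 fold change (Myc-deleted over control) of the 21 tested replication genes and 27 mitosis genes, with 95% intervals as horizontal lines. The intervals of Ccne1 (above 0) and of Mki67, Cdc20, Bub1b and Cenpf (below 0) leave out 0 before adjustment, and none of the 48 genes passed after it.

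Among the genes of helicase loading and activation, 12 of 12 were tested and their log2 fold changes ranged from -0.37 to 0.32, with 6 negative and 6 positive. Mcm2, a subunit of the replicative helicase, stood at 8.84, 9.34 and 9.60 CPM in control libraries 1 to 3, against 9.33, 12.6 and 12.8 CPM in Myc-deleted libraries 1 to 3. Myc-deleted libraries 2 and 3 were above every control, and library 1 lay among the controls (0.32 ± 0.15 SE, edgeR adjusted p = 0.252). The other 5 subunits of the Mcm2-7 ring had log2 fold changes of -0.09 (Mcm3), 0.24 (Mcm4), 0.07 (Mcm5), -0.06 (Mcm6) and -0.04 (Mcm7). Mcm10, which helps to switch the helicase on, was at 6.95 CPM in Myc-deleted library 1 and 14.3 CPM in Myc-deleted library 2, a wider spread than the controls showed (9.94 to 10.98 CPM). Of the loading factors, Cdt1 was at 12.3 ± 0.473 CPM in control mice against 10.5 ± 1.34 CPM after deletion (SD, n = 3 each), and Myc-deleted library 3 (11.99 CPM) lay inside the control range. Cdc6 (17 to 34 counts), Cdc45 (20 to 32 counts) and the GINS subunit gene Gins1 (7 to 15 counts) rested on few reads. Gins2 was at 40.9 CPM in both groups, but 67.3% of its exon bases lie antisense to Gse1, and without a stated strand setting in the counting its reads and those of Gse1 cannot be told apart.

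The fork clamp gene Pcna had the smallest SE of the tested members, 0.08 on the log2 scale. It stood at 43.5, 44.2 and 42.8 CPM in control mice against 41.6, 42.0 and 45.5 CPM after deletion. The groups overlapped, and the 95% interval of its log2 fold change ran from -0.19 to 0.16. Uhrf1, which guides methylation of newly copied DNA, had a log2 fold change of -0.25 ± 0.18 SE and Hells, a chromatin remodeller of the same pathway, -0.00502 ± 0.25 SE. Chek1, the kinase of the replication checkpoint, had 4 to 18 counts per library and did not pass the filter.

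Of the 6 genes of the step from G1 to S phase, Ccne1 differed most. Ccne1, which encodes cyclin E1, stood at 2.19, 1.90 and 1.53 CPM in control mice against 2.65, 2.97 and 4.24 CPM after deletion. These levels rested on few reads, 15 to 46 counts per library. Every Myc-deleted library was above every control, as for 14.0% of all tested genes, and library 3 was the highest. The log2 fold change was 0.81 ± 0.29 SE (unadjusted p = 0.0198, edgeR adjusted p = 0.133), and 0.58 without Myc-deleted library 3. Its paralog Ccne2 had 3.17 to 4.93 CPM in control mice against 3.84 to 4.64 CPM after deletion (0.08 ± 0.23 SE), and 17.4% of its exon bases are antisense to Ints8. Cdk2, the kinase partner of cyclin E, had groups that did not overlap either (12.2 to 12.6 CPM above 11.6 to 11.8 CPM), yet the difference was small (0.07 ± 0.11 SE, edgeR adjusted p = 0.756).

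E2f1, an activator of S-phase genes, was at 0.994, 1.38 and 2.76 CPM in control mice against 2.20, 1.21 and 2.12 CPM after deletion. With 10 to 27 counts per library, its interval (-0.83 to 1.06) did not leave out a change near 2-fold in either direction. The repressors E2f7 (0.09 ± 0.46 SE) and E2f8 (-0.28 ± 0.19 SE) did not pass.

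Among the mitotic cyclins, kinases and transcription factors, 0 of 11 passed even before adjustment, with log2 fold changes from -0.42 to 0.37. Ccnb1, which encodes cyclin B1, stood at 7.85, 6.66 and 8.48 CPM in control mice against 4.21, 7.34 and 8.40 CPM after deletion. Only Myc-deleted library 1 lay below the control range. Its fold change of -0.20 ± 0.24 SE became 0.04 without that library. Cdk1, the kinase that cyclin B switches on, was at 7.95, 8.73 and 11.8 CPM against 8.14, 11.7 and 11.7 CPM, and the groups overlapped (0.15 ± 0.20 SE). Foxm1, a transcription factor of the G2 and mitosis genes, was at 5.66, 8.04 and 8.48 CPM against 7.05, 9.66 and 8.21 CPM, again with overlap (0.17 ± 0.20 SE). The 2 Aurora kinase genes had opposite signs, Aurka at 0.37 ± 0.17 SE and Aurkb at -0.42 ± 0.23 SE (edgeR adjusted p = 0.240 and 0.330). Aurka was at 0.20 without Myc-deleted library 3, and Aurkb at -0.22 without Myc-deleted library 1 and -0.67 without library 3. The difference between these genes was not tested. The remaining cyclin genes Ccna2 (0.02), Ccnb2 (-0.21) and Ccnf (-0.07), the kinase genes Plk1 (-0.04) and Plk4 (-0.30), which act in mitosis and in centriole copying, and Mybl2 (-0.23), a partner of the MuvB complex, had groups that overlapped.

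Among the genes of the kinetochore, the spindle checkpoint and anaphase, 6 of 7 were negative and 3 of 7 had an unadjusted p under 0.05. Lower genes at that level made up 10.4% of all tested genes. Bub1b, the checkpoint protein BubR1, stood at 9.74, 7.52 and 9.19 CPM in control mice against 3.66, 6.78 and 6.00 CPM after deletion. All 3 Myc-deleted libraries were below all 3 controls, as for 13.7% of all tested genes, and library 1 was furthest away. The log2 fold change was -0.68 ± 0.23 SE (unadjusted p = 0.0137, edgeR adjusted p = 0.107), and -0.46 without Myc-deleted library 1. With no filter on low counts the adjusted p of Bub1b was 0.0484. Cdc20, which activates the anaphase-promoting complex, was at 16.3, 16.6 and 18.1 CPM against 10.8, 13.4 and 15.2 CPM. Those groups did not overlap (-0.37 ± 0.14 SE, edgeR adjusted p = 0.144). Cenpf, a large kinetochore protein, was at 6.46, 7.09 and 8.27 CPM against 3.57, 5.39 and 6.37 CPM. Myc-deleted library 3 reached just short of the lowest control (-0.51 ± 0.23 SE, edgeR adjusted p = 0.221), and without Myc-deleted library 1 the log2 fold change was -0.31. Bub1, the partner kinase of the checkpoint, was the exception of the 7 (0.18 ± 0.28 SE), on 16 to 26 counts. The motor protein gene Cenpe (-0.19) and Ube2c (-0.07), a ubiquitin-conjugating enzyme of the anaphase-promoting complex with 22.8% of its exon bases antisense to Tnnc2, had overlapping groups. Birc5, the survivin gene, was at 11.7 ± 0.108 and 11.6 ± 1.64 CPM (SD, n = 3 each).

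Among the spindle, midzone and chromosome genes, 7 of 9 were negative. Mki67, which encodes the Ki-67 protein that coats mitotic chromosomes and serves as the common marker of dividing cells, stood at 50.5, 61.2 and 57.2 CPM in control mice against 35.7, 46.9 and 46.4 CPM after deletion. Every Myc-deleted library was below every control. With 390 to 708 counts per library it was among the best measured members, and its fitted level was 1.31-fold lower after deletion (log2 fold change -0.39 ± 0.12 SE, interval -0.66 to -0.12). The unadjusted p was 0.00889 and the edgeR adjusted p 0.0826, against 0.0389 with no filter on low counts and 0.0282 with the block. Without Myc-deleted library 1 the log2 fold change was -0.27. Top2a, the topoisomerase that untangles sister chromosomes and a marker of the same cells, was at 24.8, 33.1 and 31.7 CPM against 25.2, 30.1 and 35.2 CPM. Its groups overlapped throughout (0.01 ± 0.14 SE). Tpx2, an activator of Aurora A, had groups that did not overlap (7.06 to 8.21 CPM below 8.25 to 10.4 CPM), with -0.28 ± 0.15 SE and an edgeR adjusted p of 0.314. Nusap1, a spindle microtubule protein, had overlapping groups and a log2 fold change of -0.45 ± 0.23 SE (edgeR adjusted p = 0.299), which became -0.25 without Myc-deleted library 1 and -0.29 without control library 2. Prc1, which bundles midzone microtubules, had -0.10 ± 0.18 SE. The mitotic kinesin genes Kif11 (-0.05), Kif23 (-0.18), Kif4 (-0.02) and Kif20a (0.19) did not pass, and 29.3% of the exon bases of Kif20a are antisense to Cdc23.

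**Figure D3:**
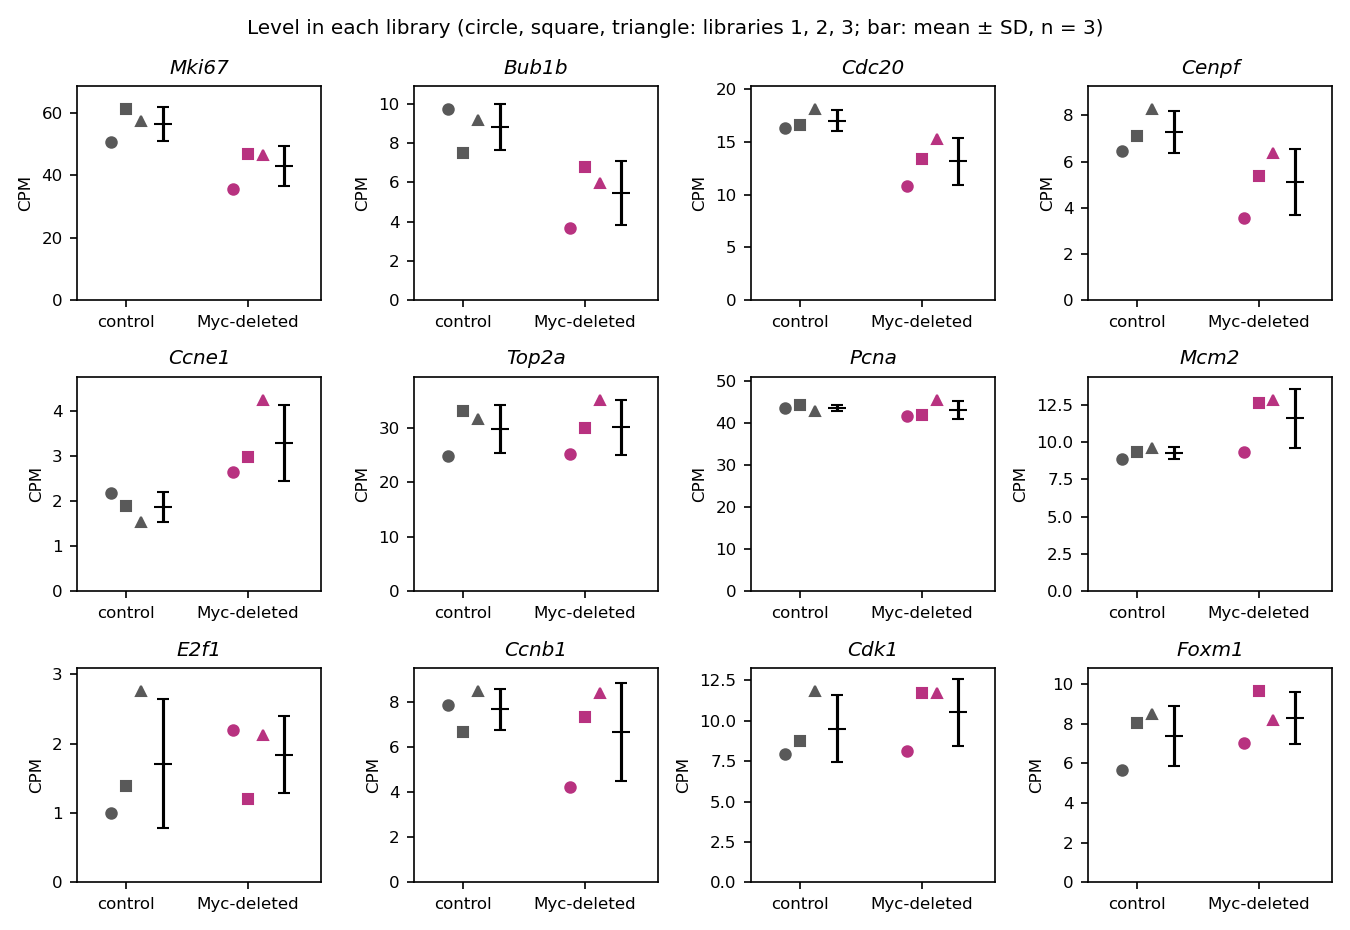
CPM in each library for 12 members, controls in grey and Myc-deleted mice in pink, with the mean and SD of 3 libraries beside them. The groups do not overlap for Mki67, Bub1b, Cdc20, Cenpf and Ccne1, and overlap for the other 7 genes. Of all 48 tested members, 5 had every Myc-deleted library below every control (10.4%, against 13.7% of all tested genes). The reverse held for 2 members (4.17%, against 14.0%).

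Replication and mitosis genes were then compared within each library. Summed over 22 genes, replication stood at 229, 211 and 236 CPM in control libraries 1 to 3, against 203, 236 and 237 CPM in Myc-deleted libraries 1 to 3, with group means of 225 ± 13.1 and 226 ± 19.5 CPM (SD, n = 3 each). Summed over 27 genes, mitosis stood at 283, 309 and 318 CPM in control mice against 224, 287 and 307 CPM after deletion. The means were 303 ± 18.1 and 272 ± 43.3 CPM. A few genes weighed most in these sums. On average Pcna held 43.5 CPM and Gins2 40.9 CPM of the replication sum in controls. Mki67 held 56.3 CPM of the mitosis sum in controls and 43.0 CPM after deletion. The low mitosis sum belonged to Myc-deleted library 1, whose 95% Poisson interval for counting error was 215 to 233 CPM, while the other 2 Myc-deleted libraries lay inside the control range. The mean log2 CPM of the tested replication genes minus that of the mitosis genes was -0.35, -0.54 and -0.46 in the controls and -0.15, -0.29 and -0.37 in the Myc-deleted libraries. Myc-deleted library 3 fell below control library 1 on this measure, so the groups overlapped. The group difference was 0.18, and 0.14 to 0.26 when each library was left out in turn. It is given without a test, since the genes were chosen with results of these libraries known.

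**Figure D4:**
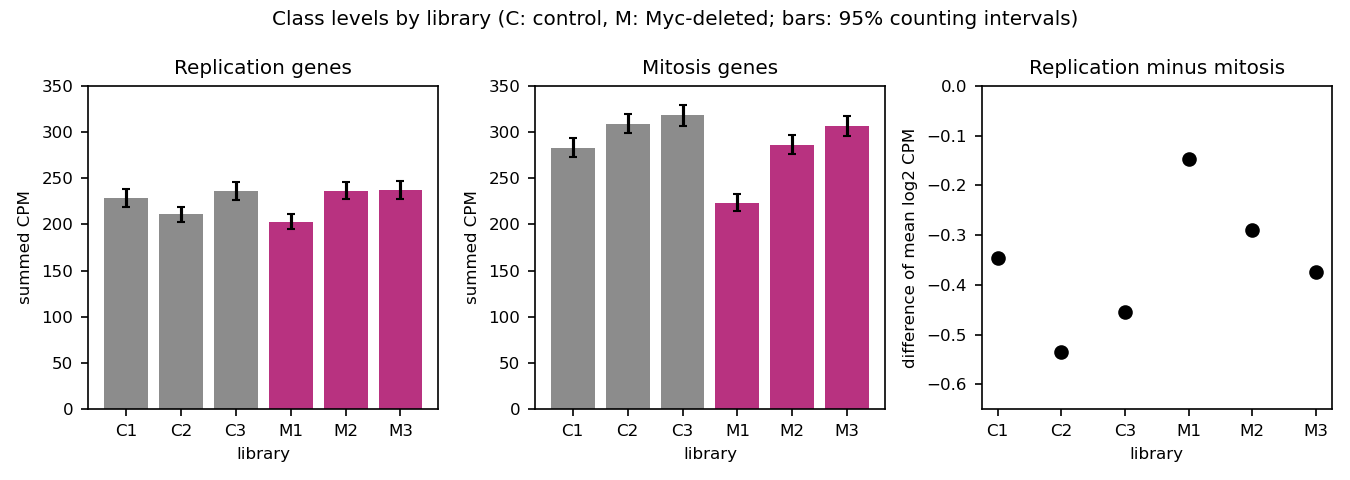
Summed CPM of replication genes (left) and mitosis genes (middle) in control (C) and Myc-deleted (M) libraries with 95% counting intervals, and the difference of the mean log2 CPM of both classes (right). Myc-deleted library 1 has the lowest mitosis sum, 224 CPM against 283 to 318 CPM in the controls.

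Myc-deleted library 1 stood apart for the mitosis genes. It was the lowest of the 6 libraries for 18 of 27 mitosis genes (66.7%) and 7 of 21 replication genes (33.3%), against 18.4% of all tested genes. Without it the median log2 fold change of the mitosis genes was 0.04 and that of the replication genes 0.03. Without Myc-deleted library 2 the mitosis median was -0.22, and without Myc-deleted library 3 it was -0.15. Dropping control library 2 gave medians of -0.05 for mitosis and -0.04 for replication. Dropping control library 1 gave -0.19 and 0.03, and dropping control library 3 gave -0.09 and 0.05. Myc was also lowest in Myc-deleted library 1, at 3.29 CPM, with 4.36 CPM in library 2 and 5.81 CPM in library 3. With 3 libraries that relation was not tested. The sum of 5 crypt stem cell markers was 84.1 CPM in Myc-deleted library 1, 103 and 108 CPM in libraries 2 and 3, and 80.6 to 133 CPM in the controls. That sum is mostly Axin2, which held 77.9 of the 84.1 CPM in Myc-deleted library 1 and averaged 90.1 CPM in controls. Of the 5 markers 4 were tested and 0 passed. Olfm4 and Smoc2 had groups that did not overlap, with log2 fold changes of -0.94 and -0.90 (edgeR adjusted p = 0.0738 and 0.0783). Ascl2 (0.34) and Axin2 (-0.00167) had overlapping groups, and Lgr5, with 4 to 10 counts per library, was not tested. The 5 germinal centre B cell markers were all tested, 0 passed and none was at 0. Their sum was 15.2 to 22.1 CPM in control mice against 21.8 to 27.3 CPM after deletion. The part of either cell type in the levels of the cell cycle genes was not tested.

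**Figure D5:**
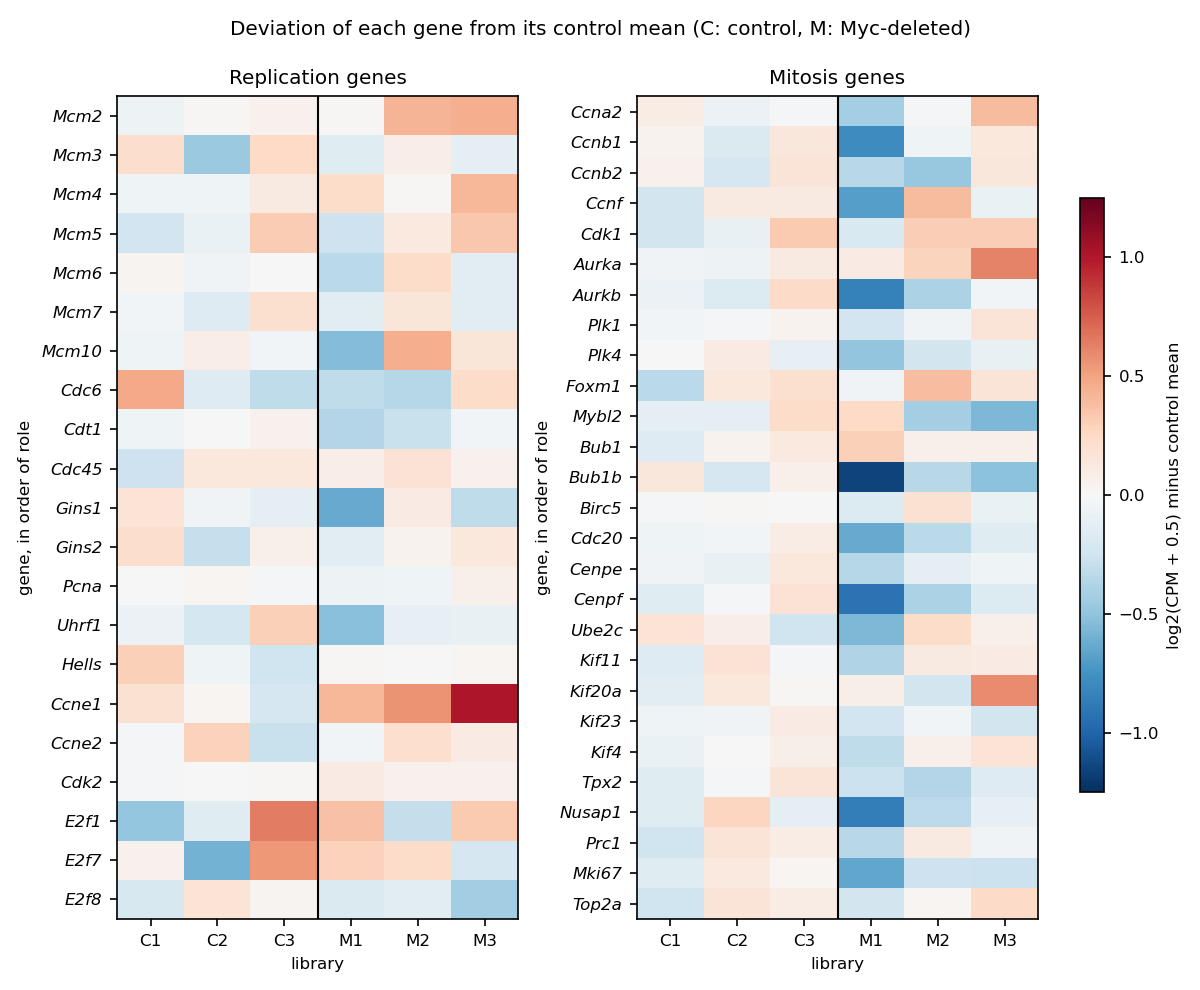
Deviation of log2(CPM + 0.5) from the control mean for each tested replication gene (left) and mitosis gene (right) in control (C) and Myc-deleted (M) libraries, blue below and red above. The column of Myc-deleted library 1 is mostly blue among the mitosis genes, where it was the lowest library for 18 of 27.

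Other genes of both pathways showed the same lack of calls. Of 52 further replication genes tested, 0 passed and 4 had an unadjusted p under 0.05, all lower (7.69%, against 10.4% of all tested genes). They were Prim1, the catalytic subunit of primase (-0.86 ± 0.25 SE, edgeR adjusted p = 0.0640), the maintenance methyltransferase gene Dnmt1 (-0.37 ± 0.12), the clamp loader gene Rfc2 (-0.26 ± 0.10) and Wdhd1, which couples helicase and polymerase (-0.41 ± 0.18). The median of the 52 genes was -0.12, with 33 negative. Of 59 further mitosis genes tested, 0 passed and 3 had an unadjusted p under 0.05 (5.08%, against 22.2% of all tested genes). They were the spindle pole gene Aspm (-0.71 ± 0.25) and the kinesin gene Kif15 (-0.55 ± 0.22) lower, and Pttg1, which encodes securin, higher (0.52 ± 0.20). The median of the 59 genes was -0.05, with 37 negative. The further replication genes thus had the lower median, the reverse of the order among the members (0.00407 for replication and -0.10 for mitosis). Of 15 E2F, Rb and MuvB regulators, 0 passed in the main edgeR fit. There, 2 had an unadjusted p under 0.05, E2f2 and E2f6 (13.3%, against 22.2% of all tested genes).

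The regulator nearest to the threshold was E2f2, an activator of S-phase genes, with 40.1, 35.2 and 32.6 CPM in control mice against 24.0, 21.3 and 30.9 CPM after deletion. The groups did not overlap, and the log2 fold change was -0.50 ± 0.14 SE (edgeR adjusted p = 0.0582). E2f2 passed with DESeq2 (adjusted p = 0.0285). It also passed in edgeR fits with upper-quartile scaling (0.0408), no minimum count (0.0155) and Myc-deleted library 3 left out (0.0108). E2f6, a repressor of the same family, was higher in every Myc-deleted library than in any control (0.64 ± 0.28 SE, edgeR adjusted p = 0.209), with 0.37 once Myc-deleted library 3 was left out.

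Per kilobase of exon, the members covered a wide range of levels in the controls. Pcna led with 18.1 CPM per kilobase, followed by Gins2 (9.97, with the overlap above), Cdc20 (9.10), Ccnb2 (7.75), Mki67 (5.60) and Plk1 (5.36). At the other end were E2f7 (0.124), Chek1 (0.164), Hells (0.407) and Bub1 (0.424). The members share no single locus, although 11 of 49 lie on chromosome 2 (22.4%, against 7.53% of tested genes), Bub1b (chr2:118598211-118641591) and Pcna (chr2:132249162-132253314) among them.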

How the data were processed

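The deposited values are expected counts per gene that the authors left unscaled between libraries. Per the submitters' processing notes, cutadapt, STAR, Picard and RSEM were used with mm10. The sources used here give no versions, annotation release or strand setting. Counts were rounded to whole numbers (8.31% of values were not whole) and fitted with edgeR 4.0.16 under R 4.3.3 (filterByExpr, minimum count 10 and total 15; TMM; quasi-likelihood F-test; Benjamini-Hochberg over all tested genes, threshold 0.05). The SE was taken as the size of the log2 fold change divided by the root of F, and 95% intervals use its t quantile. Log2 CPM used a prior count of 2. Identifiers matched GENCODE M21 (GRCm38) for 99.1% of genes, and exon lengths are unions of its exons.

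Members and lists were chosen with earlier results of these data known. Values per library are given for members with an unadjusted p under 0.05 and for Mki67, Top2a, Pcna, Mcm2, E2f1, Ccnb1, Cdk1 and Foxm1 whatever their values. Those of E2f2 are also given, chosen after they were seen. From each other pathway list, genes past the threshold and up to 4 more of lowest p are named. Poisson intervals and the floor of 3 counts cover counting error only. Alternatives were RLE, upper-quartile and TMM without ribosomal protein genes, DESeq2 1.42.0, limma 3.58.1 voom, 2 filters, the replicate number as a block and each library left out. The fit was tested on simulated data in which all genes had the same dispersion (spread between libraries). There it called 0% of 1.25-fold changes, 24% of 1.5-fold, 80% of 2-fold and 96% of 4-fold changes.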

Additional observations from a re-analysis of the deposited data

How the results depend on the processing

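The count of members past the threshold was 0 in each leave-one-out run and under every other alternative except 2. With no filter on low counts it was 2 (Bub1b, adjusted p = 0.0484, and Mki67, 0.0389), and in the fit with a replicate block it was 1 (Mki67, 0.0282). The cause was not tested. Same-numbered libraries deviated from their group means with correlations of 0.0261, 0.0524 and 0.0189, too low to pair them, although each library correlated best with its own number. The count over all tested genes was 1011, 462 to 950 when a library was left out (646 on dropping control library 1, 462 on dropping control library 2 and 639 on dropping the Myc-deleted library 2) and 980 to 1273 under the other alternatives. Of 48 members, 24 kept the sign of their fold change in every run. The replication median ranged from -0.04 to 0.05 and the mitosis median from -0.22 to 0.04 over the leave-one-out runs, and the replication median was -0.04 with upper-quartile scaling, which moved the median of all genes to -0.04. Members with under 30 counts per library (Chek1, Gins1, E2f1, E2f7, Bub1) are limited by depth.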
